A study of Mus musculus with 24 samples.

Results

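The genes described here encode the receptor, the kinases, the transcription factor and the feedback inhibitor of leukaemia inhibitory factor (LIF) signalling: Il6st, Lifr, Jak1, Jak2, Stat3 and Socs3. They were followed across lists of chromatin immunoprecipitation (ChIP-seq) peaks from mouse embryonic stem cells of the V6.5 line. A peak was assigned to a gene when its midpoint lay inside the gene span or within 20 kb of it in mm10. This rule gave 185 peaks at the 6 genes, of 246925 in the 16 stem cell lists. The lists came from mitotic and asynchronous cells with antibodies against the transcription factors Klf4 (3 mitotic and 3 asynchronous libraries), Oct4 and Sox2 (2 mitotic libraries and 1 asynchronous library each) and against H3K27ac, the acetylation of histone H3 that marks active promoters and enhancers (2 libraries of each state).

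Both groups carried the same C57BL/6-129 background and the label E3.5, and both were profiled without any genetic change. Per the labels' protocols, cells grew on irradiated feeders in medium with 1000 U/ml LIF and 15% serum. They were then moved to gelatin with 2i, which is a pair of inhibitors against MEK1 and Gsk3. The mitotic group had received nocodazole, a drug that blocks the spindle, for 7 h and was collected by shake-off, and the asynchronous group had not. The labels give the dose as 100 ug/ml, which is far above usual doses, so the unit may be wrong. All libraries thus came from a single cell line kept with LIF, and mitosis was not separated from drug exposure. The labels do not say whether libraries of a group came from separate cultures, so p-values measure only the spread between these libraries, which may be technical.

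LIF binds Lifr, which pairs with the signal transducer gp130, the product of Il6st. The paired receptors activate Janus kinases such as Jak1 and Jak2, which phosphorylate Stat3, and Stat3 moves to the nucleus and acts on its target genes. One of these targets is Socs3, whose product binds the receptor and kinases and dampens the signal. In mouse embryonic stem cells this pathway sustains self-renewal, and Stat3 acts there beside the pluripotency factors Klf4, Oct4 and Sox2.

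Promoters of 3 of the genes are shown because each lay under a Klf4 peak in all 3 asynchronous libraries, while mitotic Klf4 libraries with such a peak numbered 0 of 3 at Jak1, 1 of 3 at Jak2 and 1 of 3 at Socs3. The sequences run from 250 bases before to 50 bases after the start, from RefSeq (GRCm38.p6, the mm10 assembly), at chr4:101265174-101265473 on the minus strand (Jak1), chr19:29251553-29251852 on the plus strand (Jak2) and chr11:117969317-117969616 on the minus strand (Socs3). Capitals mark the Klf letters GGGNGTGG and the Stat letters TTCNNNGAA on either strand, which did not overlap each other.
Jak1: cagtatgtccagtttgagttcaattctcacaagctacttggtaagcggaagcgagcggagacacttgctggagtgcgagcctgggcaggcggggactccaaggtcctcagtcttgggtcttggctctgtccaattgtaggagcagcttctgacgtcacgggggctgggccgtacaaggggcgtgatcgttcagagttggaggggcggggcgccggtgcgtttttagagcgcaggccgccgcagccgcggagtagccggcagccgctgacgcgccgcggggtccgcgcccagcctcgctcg
Jak2: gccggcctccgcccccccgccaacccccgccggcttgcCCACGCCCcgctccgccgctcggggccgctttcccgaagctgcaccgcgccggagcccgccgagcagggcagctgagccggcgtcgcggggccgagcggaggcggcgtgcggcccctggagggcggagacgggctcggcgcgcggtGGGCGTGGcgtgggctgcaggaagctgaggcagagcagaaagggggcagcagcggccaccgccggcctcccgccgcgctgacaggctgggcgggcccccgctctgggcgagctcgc
Socs3: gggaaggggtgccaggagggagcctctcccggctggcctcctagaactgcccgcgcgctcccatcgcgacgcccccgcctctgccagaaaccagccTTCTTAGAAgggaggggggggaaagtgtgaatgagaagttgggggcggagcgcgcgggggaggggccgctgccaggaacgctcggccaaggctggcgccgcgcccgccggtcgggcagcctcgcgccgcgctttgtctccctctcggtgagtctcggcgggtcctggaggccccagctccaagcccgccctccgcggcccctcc

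The Jak2 promoter held 2 Klf matches, with first bases at positions −212 and −66 from the start. The Socs3 promoter held 1 Stat match, at position −154. No Klf match was found in the windows of Jak1, Socs3, Il6st, Lifr or Stat3. Among 32851 RefSeq mouse promoters of the same length 17.6% held a Klf match and 8.3% a Stat match, while the Oct4 letters ATGCAAAT occurred in 1.74% and in none of the windows at the 6 genes. The Sox letters ACAANG occurred in 41.2% of all promoters and at Jak1, Stat3, Socs3 and the downstream Lifr start. A match describes letters only.

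Libraries differed in yield before any gene was considered, and read depth is unknown. Klf4 lists held 5754, 3795 and 8438 peaks in mitotic libraries, against 10575, 21307 and 16455 in asynchronous libraries. The second mitotic Klf4 list stood apart at the 6 genes, with 1 peak. Oct4 lists held 1246 and 5282 peaks in mitotic libraries, against 3347 in the asynchronous library, and Sox2 lists 4537 and 1940 in mitotic libraries, against 2986 in the asynchronous library. In the second mitotic Sox2 list 22.5% of the peaks had a q above 0.05, and in the first mitotic Oct4 list 9.47%. H3K27ac peaks touched all 6 stem cell marker genes (Pou5f1, Nanog, Zfp42, Esrrb, Tfcp2l1 and Dppa5a) in all 4 H3K27ac libraries, touched 2 of 6 neural progenitor markers (Sox1 and Nes) in all 4, and touched 1 of 6 feeder fibroblast markers (Pdgfra) in all 4 and 4 of 6 in none. A Klf4 library from a mix of 10% stem cells with neural progenitors had 0 peaks at the 6 genes among 1334 listed, and it enters no comparison.

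The first comparison asks how many peaks the 6 genes had in each state. Oct4 and Sox2 peaks at the pathway were as many in mitosis as in asynchronous cells, gene by gene, whereas the numbers of Klf4 and H3K27ac peaks were lower in every mitotic library than in any asynchronous one. Oct4 gave 4 and 4 peaks in mitotic libraries, against 4 in the asynchronous library. Sox2 gave 6 and 6 peaks in mitotic libraries, against 6 in the asynchronous library. The numbers were equal at each of the 6 genes, so that no test could tell the states apart. Per 1000 listed peaks Oct4 had 3.21 and 0.757 in mitotic libraries, against 1.2 in the asynchronous library, and Sox2 had 1.32 and 3.09 in mitotic libraries, against 2.01 in the asynchronous library. On this scale the asynchronous value lay between the mitotic values for both factors (exact two-sided permutation test, p = 1.0 each, where 2 against 1 cannot give a p below 0.333).

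Klf4 gave 6, 1 and 6 peaks in mitotic libraries, against 10, 18 and 17 in asynchronous libraries. The groups did not overlap: the mean was 4.33 ± 2.89 in mitotic cells and 15.0 ± 4.36 in asynchronous cells (SD, n = 3 each), a difference of −10.7 peaks (exact two-sided permutation test, p = 0.1, the smallest that 3 against 3 allows). Klf4 lists were shorter in mitosis throughout the genome, and per 1000 listed peaks the pathway held 1.04, 0.264 and 0.711 in mitotic libraries, against 0.946, 0.845 and 1.03 in asynchronous libraries. These ranges overlapped (difference −0.269, exact two-sided permutation test, p = 0.4). Within project EC-EA-3702, the only one with Klf4 libraries of both states, there were 6 peaks in mitotic and 17 in asynchronous cells, 1 library each. With lists of equal length the means were 1.33 in mitotic and 4.0 in asynchronous cells (difference −2.67, exact two-sided permutation test, p = 0.1).

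H3K27ac gave 18 and 17 peaks in mitotic libraries, against 32 and 30 in asynchronous libraries. Both mitotic libraries lay below both asynchronous ones, with a difference in means of −13.5 (exact two-sided permutation test, p = 0.333, the smallest that 2 against 2 allows). Per 1000 listed peaks the values were 0.493 and 0.552 in mitotic libraries, against 0.674 and 0.645 in asynchronous libraries. With lists of equal length the difference was −2.0, from means of 16.5 in mitotic and 18.5 in asynchronous cells. All mitotic H3K27ac libraries came from project EC-DG-3514 and all asynchronous ones from EC-DG-3458, so that project and state cannot be told apart.

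**Figure D1:**
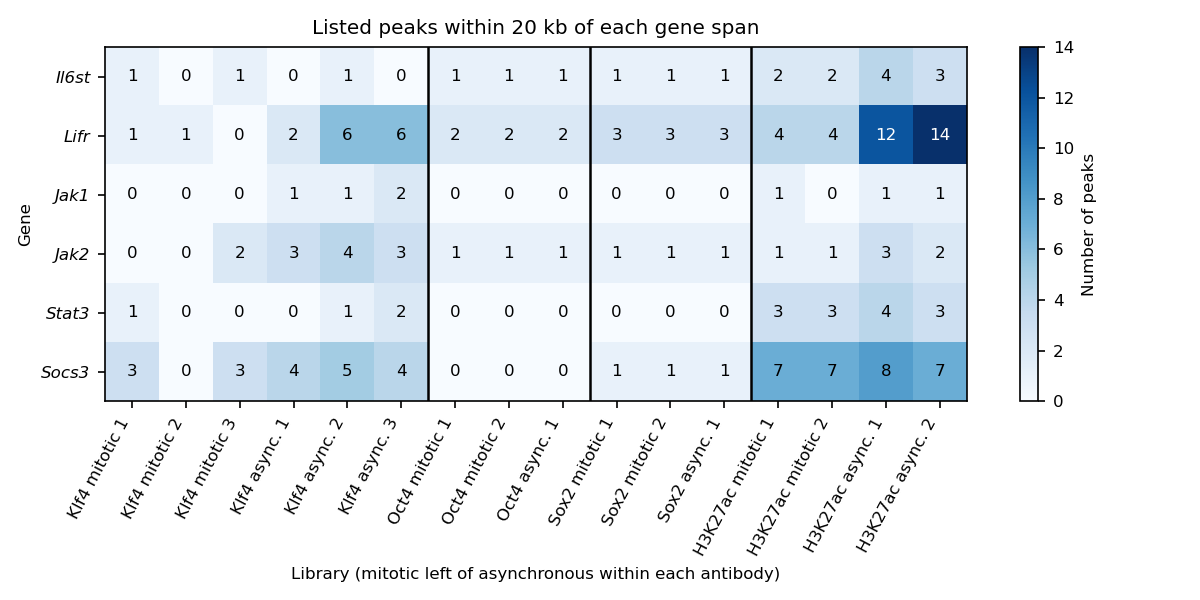
Number of listed peaks assigned to each gene (rows) in each library (columns, mitotic left of asynchronous within each antibody), with the number in the cell and as colour. Oct4 and Sox2 columns are alike in both states, Lifr has 1, 1 and 0 Klf4 peaks in mitotic and 2, 6 and 6 in asynchronous libraries, and Jak1 and Stat3 have no Oct4 or Sox2 peak.

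To follow single elements, peaks of an antibody that touched were merged into regions. The asynchronous set of an antibody holds regions with a peak in its only asynchronous library for Oct4 and Sox2, in both for H3K27ac, and in 2 or more of the 3 for Klf4. Such a region is called kept where 2 or more mitotic libraries listed a peak, lost where none did and intermediate where 1 did. Lost says that no mitotic list holds a peak, which at unknown depth is not an absence of binding. Each fold below is the authors' own value for 1 peak, its signal over local background from MACS2, and describes that peak within its own list. Where a library had several peaks in a region, the highest fold is given. Over the genome 26.9% of Klf4, 24.6% of Oct4, 40.9% of Sox2 and 46.1% of H3K27ac asynchronous regions were kept, and 44.0%, 36.2%, 28.4% and 39.4% of them were lost. Distances run from a region's midpoint to the RefSeq start, negative upstream. Exon and intron positions were not used here.

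Il6st, the gene of the shared signal transducer gp130, had a single factor site, and it carried all 3 factors. The site lay upstream of the start at −1.46 kb (chr13:112462240-112462981), outside the transcribed span. Its Oct4 region was kept, with folds of 8.25 and 16.2 in mitotic libraries, against 11.6 in the asynchronous library. Its Sox2 region was kept too, with folds of 13.5 and 11.2 in mitotic libraries, against 20.3 in the asynchronous library, where it stood at percentile 99.8 of the list by fold. Klf4 was present here in more mitotic than asynchronous lists, with folds of 3.89 and 6.62 in the first and the third mitotic libraries and no peak in the second, against a fold of 5.42 in the second asynchronous library and no peak in the first and the third. The Klf4 region was therefore outside the asynchronous set of Klf4. Its peaks had a −log10 q of 1.44 and 6.38 in these mitotic libraries, against 18.7 in the second asynchronous library. The larger number of mitotic lists thus rested on a peak below the q limit of 2 used further on. The difference in Klf4 peaks at Il6st was 0.333 per library (exact two-sided permutation test, p = 1.0).

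At the same site H3K27ac peaks were listed in asynchronous libraries and not in mitotic ones. They overlapped the Il6st site in 0 of 2 mitotic and 2 of 2 asynchronous libraries, and the nearest mitotic H3K27ac peak began 230 and 383 bp away. The asynchronous peaks overlapped both ends of the site and left a gap inside it. This gap ran from 112462493 to 112462597 in the first asynchronous library and from 112462402 to 112462708 in the second. The acetylated region over the start (chr13:112462597-112465299) was kept, with folds of 7.56 and 8.65 in mitotic libraries, against 22.1 and 18.6 in asynchronous libraries. A region just upstream (chr13:112461709-112462493) was lost. H3K27ac peaks covered 1.2 and 1.4 kb at Il6st in mitotic libraries, against 4.01 and 3.07 kb in asynchronous libraries.

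**Figure D2:**
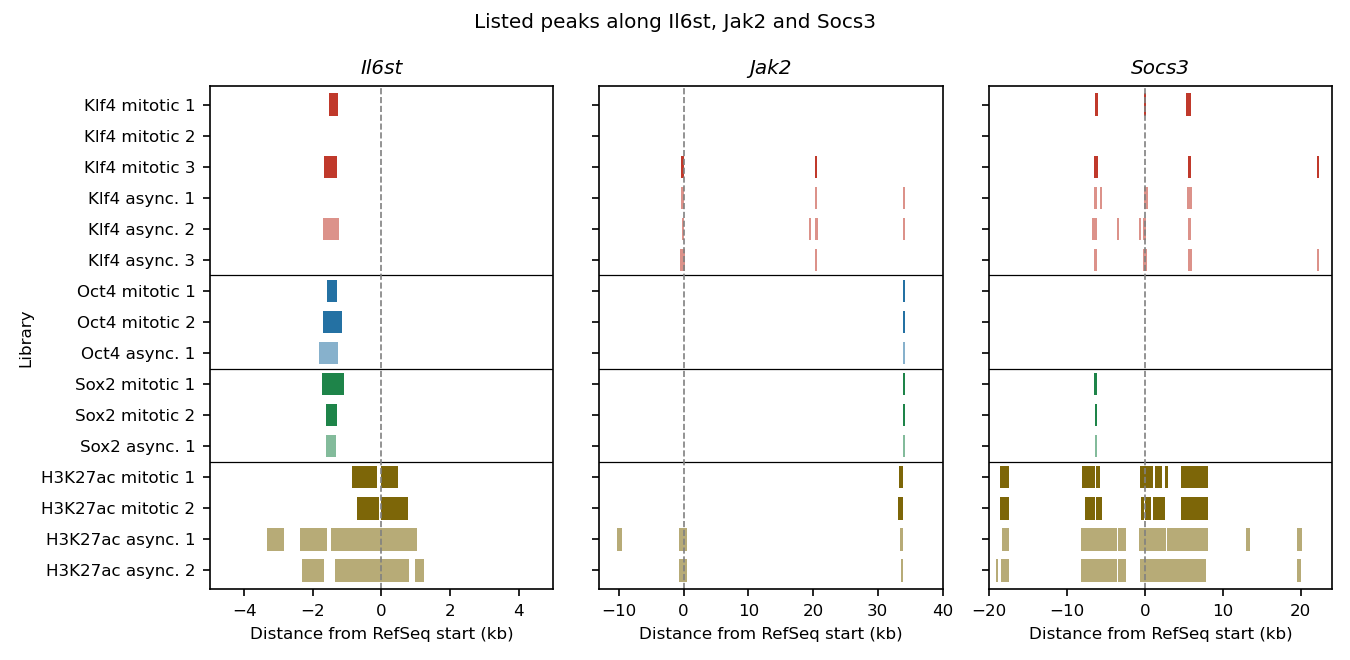
Listed peaks along Il6st, Jak2 and Socs3 by library (rows, mitotic above asynchronous within each antibody, dark for mitotic and pale for asynchronous), by distance from the RefSeq start in kb, negative upstream; the dashed line is the start and narrow peaks are drawn with a minimum width. The Oct4 and Sox2 site of Il6st at −1.46 kb is present in all 6 Oct4 and Sox2 libraries, and the mitotic H3K27ac peaks beside it stop short of it.

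Lifr, the LIF-binding chain of the receptor, had the most peaks of the 6 genes, 65 over the 16 lists. All of its Oct4 regions (24.6% over the genome) and Sox2 regions (40.9% over the genome) were kept. Of its 5 Klf4 regions 4 were lost (44.0% over the genome), as were 7 of its 9 H3K27ac regions (39.4% over the genome). A pair of neighbouring sites upstream of the first of the 2 Lifr starts carried Oct4 and Sox2. Both lay inside the RefSeq gene span, which begins further upstream, at position 7090610. The stronger site (chr15:7115355-7116193, at −13.8 kb) had Oct4 folds of 8.66 and 16.4 in mitotic libraries, against 11.7 in the asynchronous library. Its Sox2 folds were 13.4 and 13.3 in mitotic libraries, against 12.7 in the asynchronous library. A Klf4 region at the edge of this site (chr15:7115403-7115625) was lost. No mitotic library had a peak there, against folds of 2.65 and 4.16 in the second and the third asynchronous libraries. These Klf4 peaks shared no base with the asynchronous Oct4 (chr15:7115678-7116179) or Sox2 (chr15:7115755-7116191) peak. Only wide mitotic peaks of Oct4 and Sox2 joined them to the site.

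The second site of the pair (chr15:7116435-7117263, at −12.7 kb) was among the weaker Oct4 regions. Oct4 folds there were 5.00 and 4.92 in mitotic libraries, against 4.79 in the asynchronous library. The first mitotic Oct4 peak had a −log10 q of 1.36, the smallest among all peaks at the 6 genes. Sox2 folds at this site were 11.7 and 7.88 in mitotic libraries, against 8.49 in the asynchronous library. Klf4 had a peak there only in the second asynchronous library, with a fold of 3.55. A further Sox2 region without Oct4 or Klf4 lay upstream of the gene span (chr15:7081886-7082191, at −47.5 kb), with folds of 7.60 and 6.28 in mitotic libraries, against 8.11 in the asynchronous library.

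The kept Klf4 region of Lifr covered its first start (chr15:7129337-7129947, at 0.07 kb), but its mitotic peaks did not. They lay downstream of the start, at chr15:7129782-7129940 in the first and chr15:7129810-7129893 in the second mitotic library. Neither shared a base with the peak of the first asynchronous library (chr15:7129407-7129582). The promoter window of this start had a Klf4 peak in 0 mitotic and 2 asynchronous libraries. Folds were 4.33 and 4.52 in the first and second mitotic libraries with no peak in the third, against 4.17 and 4.41 in the first and the third asynchronous libraries with no peak in the second. It held the only peak of the second mitotic Klf4 list at the 6 genes. The lost regions beside the one at the edge of the −13.8 kb site were at −49.8 kb (chr15:7079658-7079900), at 3.22 kb (chr15:7132612-7132969) and at 27.2 kb from the downstream start (chr15:7167560-7167926). This last one had folds of 4.92, 3.54 and 8.72 in the asynchronous libraries, the highest mean among the Klf4 regions of Lifr in the asynchronous set. Over Lifr the number of Klf4 peaks was 0.667 ± 0.577 in mitotic and 4.67 ± 2.31 in asynchronous libraries (SD, n = 3 each; exact two-sided permutation test, p = 0.1).

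Of the 9 H3K27ac regions of Lifr 2 were kept (46.1% over the genome). A wide region across the paired Oct4 and Sox2 sites (chr15:7113289-7121070, 7782 bp) was kept, with highest folds of 13.4 and 12.0 in mitotic libraries, against 30.3 and 32.4 in asynchronous libraries. The region over the start (chr15:7128448-7130420) was kept as well, with folds of 5.23 and 4.32 in mitotic libraries, against 18.2 and 16.4 in asynchronous libraries. The 7 lost regions included one of 3709 bp (chr15:7078861-7082569) that covered the kept Sox2 site at −47.5 kb. Acetylated length at Lifr was 6.3 and 6.28 kb in mitotic libraries, against 17.8 and 18.0 kb in asynchronous libraries. The whole H3K27ac lists covered 39.5 and 37.7 Mb in mitotic libraries, against 54.1 and 50.3 Mb in asynchronous libraries.

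**Figure D3:**
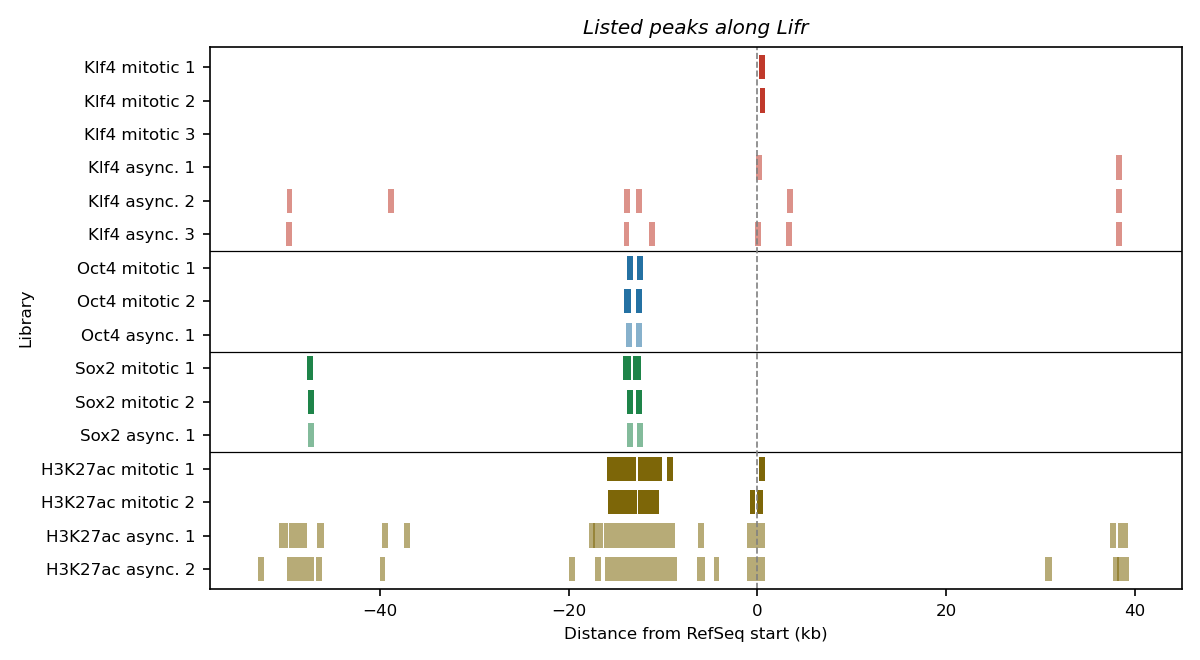
Listed peaks along Lifr by library (rows, mitotic above asynchronous within each antibody, dark for mitotic and pale for asynchronous), by distance in kb from the upstream of the annotated starts (dashed line), negative upstream; narrow peaks are drawn with a minimum width. Oct4 and Sox2 peaks recur at the same positions in every Oct4 and Sox2 library, mitotic H3K27ac peaks remain around −13.8 kb and the start, and most asynchronous Klf4 peaks have no mitotic counterpart.

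Jak1, a kinase that binds the cytoplasmic tail of gp130, had no Oct4 or Sox2 peak in any library. Its promoter, the first sequence above, lay under a Klf4 region (chr4:101265068-101265420, at −0.021 kb) that was lost: no mitotic library had a peak, against folds of 4.24, 2.80 and 6.96 in asynchronous libraries. One further Klf4 peak of the third asynchronous library lay at 109 kb, towards the end of the gene. Klf4 peaks at Jak1 numbered 0 in all 3 mitotic libraries, against 1, 1 and 2 in asynchronous libraries (exact two-sided permutation test, p = 0.1). These numbers were not scaled to the Klf4 lists, which were shorter in mitosis as a whole. The acetylated region at the start (chr4:101264603-101265284) was intermediate, with a fold of 7.11 in the first mitotic library and no peak in the second, against 7.70 and 10.6 in asynchronous libraries.

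Jak2, the other kinase, had a site of all 3 factors inside the gene, at 34.0 kb from its start (chr19:29285625-29286036). Oct4 folds there were 4.73 and 5.97 in mitotic libraries, against 8.53 in the asynchronous library, and the first mitotic peak had a −log10 q of 1.48. Sox2 folds were 5.13 and 4.54 in mitotic libraries, against 6.25 in the asynchronous library. Oct4 and Sox2 were thus kept and Klf4 was not: 0 of 3 mitotic libraries had a Klf4 peak, against folds of 7.32 and 3.86 in the first and second asynchronous libraries and no peak in the third. H3K27ac beside the site (chr19:29284920-29285743) was kept, with folds of 3.49 and 4.32 in mitotic libraries, against 5.59 and 4.64 in asynchronous libraries.

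At the Jak2 promoter acetylation was lost. H3K27ac over the start (chr19:29251072-29252344) had no mitotic peak, against folds of 7.75 and 7.51 in asynchronous libraries. Klf4 over the start (chr19:29251321-29252080), where the second sequence above carries its Klf letters, had a fold of 3.60 in the third mitotic library and no peak in the other two, against 5.39, 3.29 and 9.74 in asynchronous libraries. The Klf4 region at 20.5 kb inside the gene (chr19:29272084-29272533) likewise had a peak in the third mitotic library alone, with a fold of 4.16, against 6.16, 4.36 and 6.08 in asynchronous libraries. Klf4 peaks at Jak2 numbered 0, 0 and 2 in mitotic libraries, against 3, 4 and 3 in asynchronous libraries (exact two-sided permutation test, p = 0.1). They too were not scaled to the shorter mitotic Klf4 lists.

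Stat3, the transcription factor of the pathway, had neither Oct4 nor Sox2 peaks and no Klf4 region of the asynchronous set. Its 4 Klf4 regions were each listed in 1 library, 1 of them mitotic, with folds between 2.62 and 4.41. Klf4 peaks at Stat3 numbered 1, 0 and 0 in mitotic libraries, against 0, 1 and 2 in asynchronous libraries, and these ranges overlapped (exact two-sided permutation test, p = 0.7). H3K27ac was kept in 3 of 3 regions (46.1% over the genome). The widest (chr11:100934226-100935863) had folds of 4.65 and 6.92 in mitotic libraries, against 6.03 and 4.36 in asynchronous libraries. The region over the start (chr11:100938264-100939597) had 7.27 and 5.76 in mitotic libraries, against 27.3 and 22.1 in asynchronous libraries. Acetylated length at Stat3 was 2.51 and 2.68 kb in mitotic libraries, against 3.05 and 2.77 kb in asynchronous libraries. Stat3 thus had H3K27ac in every library with little listed binding of the 3 factors.

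Socs3, the feedback inhibitor, held 2 of the 3 kept Klf4 regions. One lay downstream of the short gene (chr11:117963345-117964047, at 5.67 kb), with folds of 4.33 and 3.48 in the first and the third mitotic libraries, against 6.29, 8.03 and 8.18 in asynchronous libraries. The other lay upstream (chr11:117975370-117976089, at −6.36 kb), with folds of 3.89 and 4.87 in the same mitotic libraries, against 3.93, 6.23 and 10.3 in asynchronous libraries. The second mitotic library had no Klf4 peak at Socs3. The upstream site also carried the only Sox2 region of the gene, which was kept with folds of 8.30 and 4.06 in mitotic libraries, against 12.5 in the asynchronous library. The promoter, the last sequence above, lay under an intermediate Klf4 region (chr11:117969002-117969597) with a fold of 5.29 in the first mitotic library alone, against 6.93, 3.26 and 5.79 in asynchronous libraries.

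H3K27ac covered more of the Socs3 window than of the window of any other of the 6 genes in mitosis. Its widest region (chr11:117961217-117970048, 8832 bp) runs over most of the gene and over the downstream Klf4 site and was kept. The order of its peaks differed along the region. At its downstream end, around the Klf4 site, folds were 12.8 and 12.4 in mitotic libraries, against 10.7 and 15.7 for a pair of peaks in the first asynchronous library and 13.3 in the second. Over or beside the start, folds were 5.81 in the first mitotic library and 6.92 and 4.32 for a pair of peaks in the second, against 22.3 and 21.6 in asynchronous libraries. Of 5 acetylated regions 3 were kept (46.1% over the genome) and 2 lost (39.4% over the genome). Acetylated length was 9.82 and 9.37 kb in mitotic libraries, against 16.5 and 15.9 kb in asynchronous libraries, while the number of H3K27ac peaks was 7 and 7 in mitotic libraries, against 8 and 7 in asynchronous libraries. Klf4 peaks at Socs3 numbered 3, 0 and 3 in mitotic libraries, against 4, 5 and 4 in asynchronous libraries (exact two-sided permutation test, p = 0.1). Their mean was 2.0 in mitotic and 4.33 in asynchronous libraries, beside mean lengths of 6000 and 16100 peaks for the whole Klf4 lists.

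Windows of all 6 genes also reached other genes: Il31ra at Il6st, Egflam at Lifr, Raver2 at Jak1, Insl6 and Rln1 at Jak2, Stat5a and Cavin1 at Stat3, and Pgs1 at Socs3. Which gene a region acts on was not measured.

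**Figure D4:**
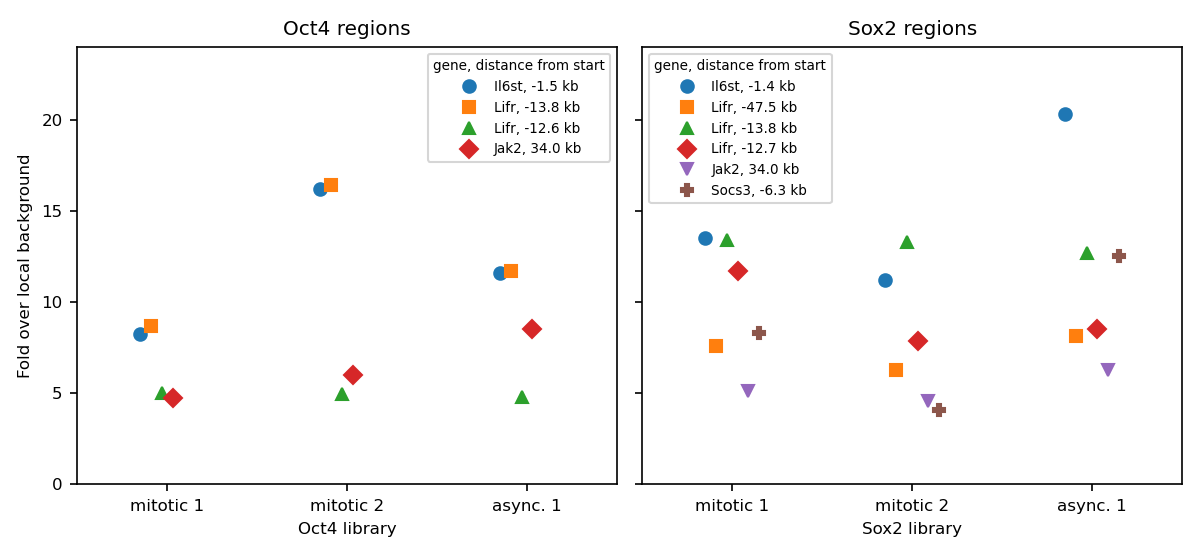
Fold over local background of each Oct4 region (left) and Sox2 region (right) at the 6 genes, by library, mitotic left of asynchronous; each point is 1 peak, symbols name the gene and the distance from its start, and there are no error bars. All 4 Oct4 and 6 Sox2 regions have a point in every library, with the Il6st site and the Lifr site at −13.8 kb at the top of the Oct4 panel.

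The second comparison asks what share of the elements used in asynchronous cells was also listed in mitosis. At the 6 genes all Oct4 and Sox2 regions were kept, and Klf4 and H3K27ac regions were kept about as often as anywhere in the genome. For Oct4, 4 of 4 regions were kept (95% Wilson interval 51.0% to 100.0%) and 0 lost, where 24.6% of all asynchronous Oct4 regions were kept and 36.2% lost. For Sox2, 6 of 6 were kept (61.0% to 100.0%) and 0 lost, where 40.9% of all asynchronous Sox2 regions were kept and 28.4% lost. For Klf4, 3 of 12 (25.0%, 8.89% to 53.2%) were kept, with 26.9% over all regions, and 6 were lost (50.0%, with 44.0% over all). For H3K27ac, 10 of 22 (45.5%, 26.9% to 65.3%) were kept, with 46.1% over all regions, and 11 were lost (50.0%, with 39.4% over all). Intervals cover counting error only, and regions of a gene are not independent of each other.

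The shares rest on few libraries and, for Klf4, on peaks of low significance. Where a mitotic Klf4 library was left out, a kept region needed a peak in both others. Without the first mitotic Klf4 library 0 of 12 Klf4 regions were kept, without the third 1 of 12 (8.33%), without the second 2 of 12 (16.7%), and with a −log10 q of at least 2 in every list 0 of 12. With that q limit 2 of 4 Oct4 regions were kept. The sites of Lifr at −12.7 kb and of Jak2 at 34.0 kb no longer had a peak in the first mitotic library. With a −log10 q of at least 5, 2 of 3 Oct4 and 3 of 5 Sox2 regions were kept. Lists of equal length left 2 of 3 Oct4 and 5 of 6 Sox2 regions kept. A window of 50 kb gave 4 of 5 for Oct4 and 7 of 8 for Sox2.

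**Figure D5:**
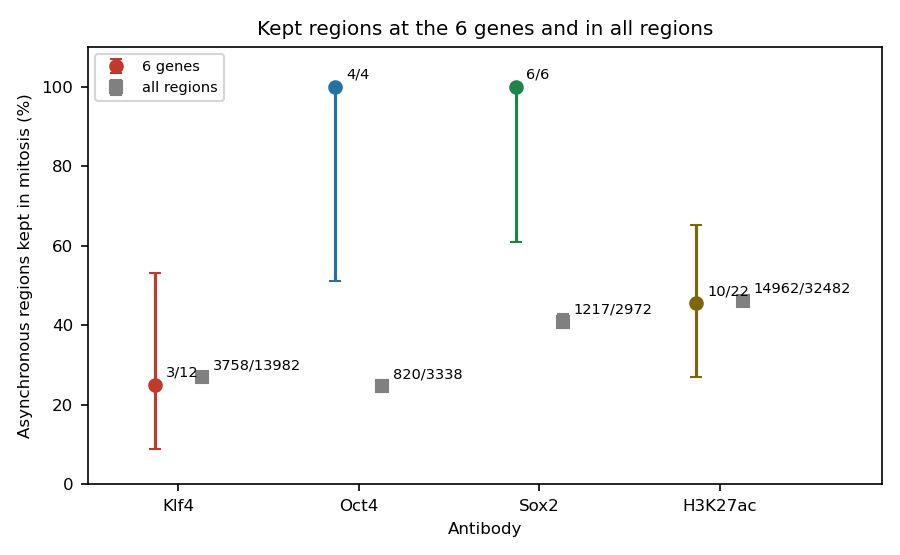
Percent of asynchronous regions kept in mitosis at the 6 genes (circles) and in all regions of the antibody (squares), with 95% Wilson intervals as bars and the counts beside the points. Oct4 with 4 of 4 and Sox2 with 6 of 6 lie at 100%, and Klf4 with 3 of 12 and H3K27ac with 10 of 22 lie near the value for all regions.

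Counted by gene, 4 of the 6 had a Klf4 region of the asynchronous set (50.6% of 21887 protein-coding genes did), 3 an Oct4 region (13.6%), 4 a Sox2 region (10.9%) and 6 an H3K27ac region (69.6%). A kept region was present at 2 of 4 genes for Klf4, Lifr and Socs3, where 43.2% of bound genes had one. It was present at 3 of 3 for Oct4 (24.4%), at 4 of 4 for Sox2 (40.8%) and at 5 of 6 for H3K27ac (80.4%), Jak1 being the exception. Every region of the gene was kept at 3 of 3 genes for Oct4 and at 4 of 4 for Sox2, as it was at 18.0% and 33.2% of all genes bound by each. In single mitotic libraries 33.3%, 8.33% and 33.3% of the Klf4 regions at the 6 genes had a peak, beside 30.3%, 18.9% and 44.2% of all Klf4 regions. For Oct4 the values were 100.0% in both mitotic libraries at the 6 genes, beside 25.7% and 62.7% of all regions, and for Sox2 100.0% in both, beside 69.1% and 43.4%. Because every Oct4 and Sox2 region at the 6 genes was kept, these full shares by gene and by library add no further result.

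Sites shared by Oct4 and Sox2 consist of regions already counted as kept, so their count follows from those above. In asynchronous cells 4 sites at the 6 genes had both factors, those of Il6st, Lifr (the pair) and Jak2. All 4 had a peak in each of the 4 mitotic Oct4 and Sox2 libraries, where 441 of 1180 such sites over the genome did (37.4%). Klf4 had a peak at these 4 sites in 2, 0, 0 and 0 of 3 mitotic libraries and in 1, 2, 1 and 2 of 3 asynchronous libraries. The Il6st site was thus the only one of the 4 with a mitotic Klf4 peak. At the Lifr site at −13.8 kb the asynchronous Klf4 peaks did not overlap the asynchronous Oct4 or Sox2 peak.

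Strong asynchronous peaks were kept more often across the genome, and many of the Oct4, Sox2 and H3K27ac regions at the 6 genes were strong. In quintiles of fold within the asynchronous lists, 51.9% of all Oct4 regions in the top quintile were kept and 12.9% in the bottom one. Of the Oct4 regions at the 6 genes, 3 of 3 in the top quintile were kept, and the Lifr site at −12.7 kb was kept from the second quintile, in which 12.9% of all Oct4 regions were. For Sox2 5 of 5 regions in the top quintile were kept, with 80.3% of all, and the Jak2 site was kept from the fourth quintile, with 49.3% of all. For H3K27ac 8 of 8 regions in the top quintile were kept, with 94.2% of all, and 2 of the 14 in the other quintiles, with 34.0% of all, the Stat3 region at 4.5 kb and the Jak2 region at 33.5 kb. For Klf4 1 of 2 regions in the top quintile was kept, with 59.2% of all, and 2 of 10 below it, with 18.8% of all. The part of strength in the kept share was not tested.

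Other genes of the pathway were examined in lists of 32 JAK-STAT signalling genes and 12 Stat3 target genes. Of the 32 signalling genes 4 had an Oct4 region (12.5%, beside 13.6% of all genes) and 2 a Sox2 region (6.25%, beside 10.9% of all genes). Of their 5 Oct4 regions 1 was kept (20.0%, beside 24.6% of all), as were 2 of 2 Sox2 regions (40.9% of all). The kept Oct4 region lay at Cntfr, the ciliary neurotrophic factor receptor chain, and the kept Sox2 regions at Lif, the ligand itself, and at Grb2, an adaptor protein; Cntfr and Lif are named after their values were seen. Klf4 was kept in 18 of 52 regions at these genes (34.6%, beside 26.9% of all) and lost in 21 (40.4%, beside 44.0% of all). H3K27ac was kept in 57 of 100 regions (57.0%, beside 46.1% of all) and lost in 32 (32.0%, beside 39.4% of all).

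At the Stat3 targets Oct4 was kept in 3 of 9 regions (33.3%, beside 24.6% of all), Sox2 in 2 of 6 (33.3%, beside 40.9% of all), Klf4 in 14 of 42 (33.3%, beside 26.9% of all) and H3K27ac in 34 of 58 (58.6%, beside 46.1% of all). The genes named next were chosen for their kept regions. At least 1 region of each of the 3 factors was kept at Nanog and Esrrb, transcription factors of the naive stem cell state, while 2 of 3 Sox2 regions at Nanog and 4 of 8 Klf4 regions at Esrrb were lost. At Nanog the Oct4 region beside the start had folds of 6.66 and 10.6 in mitotic libraries, against 7.81 in the asynchronous library. At Esrrb the Sox2 region at 80.1 kb inside the gene had folds of 4.31 and 5.27 in mitotic libraries, against 8.45 in the asynchronous library. A Klf4 and an Oct4 region were kept at Tfcp2l1, a factor that carries part of the Stat3 response in stem cells, and 3 of its 5 Klf4 regions were lost. Its kept Klf4 region at 20.2 kb had folds of 7.22 and 3.49 in the first and the third mitotic libraries, against 16.4, 6.23 and 5.16 in asynchronous libraries. At Grb2 2 of 3 Klf4 regions and its only Sox2 region were kept, the Klf4 region at −8.73 kb with folds of 4.38 and 5.64 in the first and the third mitotic libraries, against 4.42, 5.01 and 8.09 in asynchronous libraries.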

How the data were processed

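Fixation was 10 min in 1% formaldehyde, per the labels, and the ChIP-seq antibodies were R&D AF3158 for Klf4, Santa Cruz SC-8628 for Oct4, R&D AF2018 for Sox2 and Abcam ab4729 for H3K27ac. Of 24 samples, 17 had a peak list and 7 were inputs without one. Per the submitters' processing notes, the tools were cutadapt 1.8.1, Bowtie2 2.2.5, deepTools 2.3.6 and MACS2 2.1.1, with mm10. In each deposited list, of 1 library, the authors gave a peak's enrichment as a fold, and its p-value and q-value as −log10. No peak with a −log10 p below 5 was listed. Read depth is unknown, so list length was the only measure of yield.

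Lists were read and merged (at least 1 bp shared) in Python 3.11.15 (pandas 2.3.3, numpy 2.4.6). Tests used scipy 1.17.1, intervals statsmodels 0.14.6 and figures matplotlib 3.10.9. Merging, classing and assignment to genes were tried on simulated lists in which every library of a state held all its peaks. Missed peaks, lists of unequal yield, the tests and the intervals were not simulated. Gene spans and starts were RefSeq's (GRCm38.p6), matched by symbol for all 6 genes. The nearer start was used for Lifr, which has 2. Equal-length lists held the peaks of smallest p, as many as the antibody's shortest list. The genes, the 2 pathway lists and the tests were chosen with earlier results of these data known. Every region of the asynchronous set of Klf4, Oct4 and Sox2 was described. Folds were given for the region of highest mean fold per gene and antibody within that set. They were also given for sites of all 3 factors and for regions the comparison turned on. Outside the set, single Klf4 peaks of the third asynchronous library had higher folds than those means at Lifr (7.08), Jak2 (7.72) and Jak1 (5.42). From the pathway lists, genes with kept regions of at least 2 factors were named. Genome sequence was not used here, so only promoters are printed. Alternatives were the window (10 and 50 kb), q limits, list length, overlap, the rule for kept, projects and leaving out each library.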

Additional observations from a re-analysis of the deposited data

How the results depend on the processing

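Of the 93 alternative values for the numbers of peaks and the kept shares, 86 moved by less than the spread or stayed on the same side, and none turned its direction. For Oct4 and Sox2 the main difference in peaks was 0.0, so their differences could not turn direction and counted as unchanged at any value. The Oct4 difference was −1.0 with a window of 50 kb and 0.789 per 1000 listed peaks. Klf4 regions were kept in 0.0% with a −log10 q of at least 5 (0 of 9), 0.0% with at least 2 (0 of 12) and 0.0% with lists of equal length (0 of 2), and in 0.0% to 37.5% when each library was left out, the extremes being without the first mitotic library and without the second asynchronous one. Oct4 regions were kept in 50.0% with a −log10 q of at least 2 and Sox2 regions in 60.0% with at least 5. The difference in Klf4 peaks lay between −13.2 and −9.0 without each library in turn, and without both libraries of project EC-DG-3514, chosen after the data were seen, it was −9.0, and the 1 remaining mitotic library had a peak in 4 of 12 regions. For H3K27ac the ranges were −14.5 to −12.5 peaks and 33.3% to 50.0% kept. With 1 library of a state left, its peak was enough to count. Oct4 and Sox2 regions had a peak in both mitotic libraries, so leaving out either could not change their values and shows nothing about stability, and without their only asynchronous library no value could be computed. Replicate numbers did not pair the H3K27ac libraries (correlation of deviations −0.00956 over 60680 regions). With the replicate block the difference was −13.5 peaks, a value that pairing could not change (exact permutation test, p = 0.5). For Klf4 no paired analysis was possible because every asynchronous title carries the number 1, so that title numbers define no pairs, and for Oct4 and Sox2 because there is 1 asynchronous library. Unknown read depth limits every count: a region absent from a list may lie under the listing threshold.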

Other observations

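Among protein-coding genes more than 100 kb away, those with numbers of peaks most like each gene over the 16 lists were found for the 3 genes with peaks of all 4 antibodies, by the sum of absolute differences in number of peaks. For Il6st, with 20 peaks, these were Sgk2, Foxo1 and Nfat5, each at a sum of 5. For Jak2, with 25 peaks, they were Dnajc3, Cfap61 and Pbx3, each at 7. For Lifr, with 65 peaks, they were Ccs at 13 and Glis3 and Trp53 at 18. The points share libraries and list lengths, and the likeness is a description.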
